A study of Mus musculus with 6 samples.

Results

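The subject is 6 annotated mouse noncoding genes, Gm26797, Gm31925, Gm11476, Gm20337, 9430060I03Rik and F730016J06Rik, out of 9830 annotated noncoding genes and 32285 genes in all. They were chosen because their levels in neutrophil clusters, raw counts scaled to the UMIs of each sample, were higher in mandibular-derived than in femur-derived cells. Their levels in those clusters are therefore given as a description, with no p-value. Single-cell RNA sequencing had been run on marrow cells selected with CD11b magnetic beads, CD11b being an integrin subunit on neutrophils and monocytes. The cells came from C57Bl/6 mice with no engineered allele and no treatment, at an age of 2 months, in 3 femur samples (replicate 1 female, replicates 2 and 3 male) and 3 mandible samples (all male). Femur marrow was flushed from cut long bones (the sample labels name tibiae as well, the study's methods femurs alone), and mandible marrow was flushed after the molars had been pulled and the sockets rinsed. Nothing in the sources used here says whether a sample was 1 mouse or several, so the spread between samples may be partly technical.

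After the authors' filters 69776 cells remained in 9 clusters, numbered 0 to 8, with 82962160 to 244946998 UMIs (unique molecular identifiers, each standing for 1 captured RNA molecule) per sample. Clusters 0, 1, 2, 3, 4 and 7 held the neutrophils, and 95.2% to 100% of their cells carried the deposited reference label for neutrophil. Cluster 4 had the most Elane and Mpo, primary granule genes of early precursors. Cluster 0 had the most Ltf and cluster 3 the most Mmp8, the granule genes that come later, and cluster 1 had the most Csf3r, the receptor that mature neutrophils carry. Cluster 7 stood apart by a median mitochondrial share of 5.84% to 7.74%. Clusters 5, 6 and 8 are called monocytes, B cells and haemoglobin-rich cells here. Cluster 5 had the most Ly6c2 and 50.8% of its cells carried the monocyte label, cluster 6 had the most Cd79a and 85.8% carried the B-cell label, and cluster 8 had 6666 to 59745 CPM of Hba-a1. Neutrophil labels were also present there, on 34.4% of the cells of cluster 5, 13.7% of cluster 6 and 87.6% of cluster 8. Between 15 and 70 cell barcodes were shared by any pair of libraries, at most 0.651% of the smaller one.

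Long noncoding RNAs are transcribed, and often spliced and polyadenylated, like messenger RNAs, but are not translated into a known protein. Some lie across or beside a protein-coding gene and can act on it, others work elsewhere in the cell, and most, these 6 included, have no established role. Neutrophils mature in the marrow from dividing precursors to segmented cells in an ordered sequence of granule gene programmes, and several noncoding RNAs are known to rise or fall along it.

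The libraries captured RNA by its 3′ end, so the last bases of an annotated transcript show where its reads should fall and whether the usual cleavage signal is there. The last 120 bases were read from 1 GENCODE transcript of mm10 per gene, the one that reaches furthest at the 3′ end. The signal AATAAA is in capitals. Gm26797 and F730016J06Rik have 3 annotated transcripts each and Gm31925 has 2, and any other ends of these were not read. Each sequence lies within the last exon.

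Gm26797, chr9:122295869-122295988, minus strand: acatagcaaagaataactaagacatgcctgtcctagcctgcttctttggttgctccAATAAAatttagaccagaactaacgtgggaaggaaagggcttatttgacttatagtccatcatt
Gm31925, chr1:161903054-161903173, plus strand: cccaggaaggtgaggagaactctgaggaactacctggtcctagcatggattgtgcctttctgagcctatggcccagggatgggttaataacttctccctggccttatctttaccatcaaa
Gm11476, chr2:167607726-167607845, plus strand: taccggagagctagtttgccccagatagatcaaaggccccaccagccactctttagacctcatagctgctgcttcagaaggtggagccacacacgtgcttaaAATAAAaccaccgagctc
Gm20337, chr12:80942673-80942792, minus strand: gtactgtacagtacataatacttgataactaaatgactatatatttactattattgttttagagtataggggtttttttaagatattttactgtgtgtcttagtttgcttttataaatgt
9430060I03Rik, chr1:92933526-92933645, minus strand: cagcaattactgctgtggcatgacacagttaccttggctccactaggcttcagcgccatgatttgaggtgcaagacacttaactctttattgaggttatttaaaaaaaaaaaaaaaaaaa
F730016J06Rik, chr2:28127612-28127731, plus strand: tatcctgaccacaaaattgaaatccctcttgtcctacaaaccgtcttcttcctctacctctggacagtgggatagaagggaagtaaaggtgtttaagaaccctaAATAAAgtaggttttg

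The signal stood 58 bases before the end in Gm26797, 12 in Gm11476 and 10 in F730016J06Rik, and these letters were not in the window of the other 3. Of 9825 noncoding genes 46.67% held AATAAA or ATTAAA in the same window, and ATTAAA was in none of the sequences above. The annotated end of 9430060I03Rik runs into a stretch of A. Upstream windows from RefSeq (GRCm38.p6; 250 bases before to 50 after a start) matched 3 of the 6 genes with 5 starts, and a search on both strands for GAGGAAG (PU.1), TTGCNNAA (C/EBP), TGANTCA (AP-1), TATAAA and the NF-kB motif found 1 match, GAGGAAG at the third start of Gm11476. Of all promoters in that table, 13.6% held GAGGAAG.

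The genes differ in their surroundings on mm10, as the annotation gives them. Gm26797 (ENSMUSG00000097572, lincRNA, chr9:122295869-122310928, minus strand) overlaps the noncoding Gm47126 on the opposite strand and ends 1446 bases from Ano10, a gene for a membrane protein of the anoctamin family, which reads the same way. Gm31925 (ENSMUSG00000103158, lincRNA, chr1:161890458-161903173, plus strand) starts 13776 bases from Suco and reads away from it. Gm11476 (ENSMUSG00000085596, processed transcript, chr2:167553314-167607845, plus strand) runs into the last exon of Ube2v1, a ubiquitin-conjugating enzyme variant gene on the opposite strand, and lies 10500 bases from Snai1.

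Gm20337 (ENSMUSG00000112880, bidirectional promoter lncRNA, chr12:80942673-80945396, minus strand) starts 108 bases from Srsf5, a splicing factor gene read the other way. 9430060I03Rik (ENSMUSG00000100632, antisense, chr1:92933526-92950590, minus strand) covers Capn10, a calpain protease gene on the opposite strand, and starts 275 bases from Gpr35, a G protein-coupled receptor gene read the other way. F730016J06Rik (ENSMUSG00000086425, lincRNA, chr2:28095477-28127731, plus strand) lies 1963 bases from the noncoding Gm13371 and 65261 bases from Olfm1. The sources used here do not say that counting used the strand, so reads of Gm26797, Gm11476 and 9430060I03Rik could not be told apart with certainty from those of the genes that overlap their exons.

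**Figure D1:**
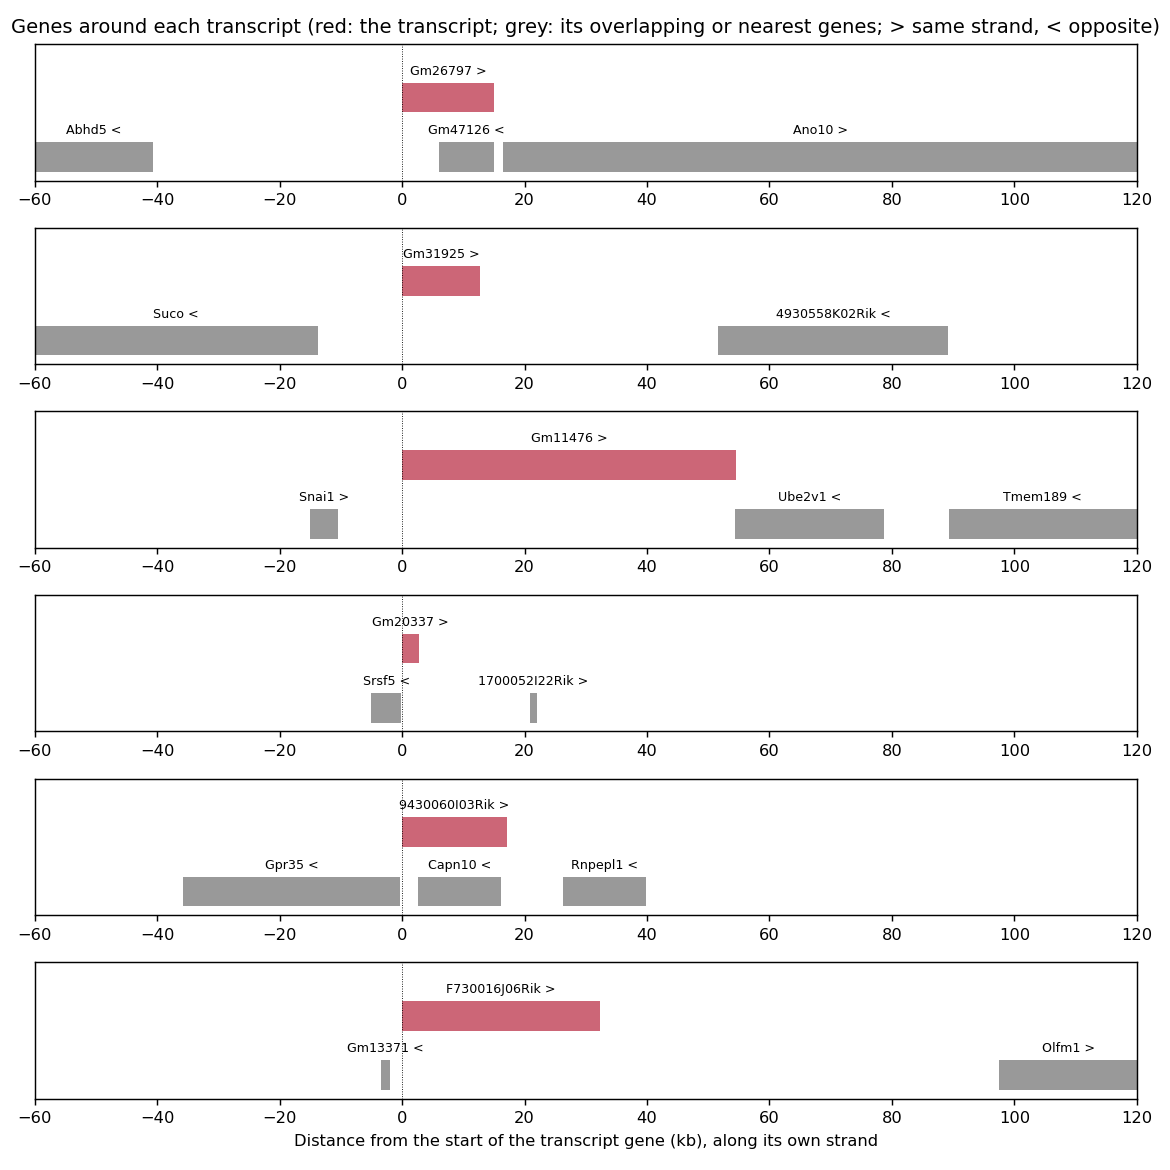
Genes around each of the 6 transcripts, drawn as bars against the distance from the start of the transcript in kb along its own strand (red, the transcript; grey, its overlapping or nearest annotated genes; > same strand, < opposite strand; genes are cut off at the edges). Gm20337 and 9430060I03Rik start 108 and 275 bases from a gene read the other way, while the genes on either side of F730016J06Rik lie 1963 and 65261 bases away.

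In cluster 1, the Csf3r-rich mature neutrophils, all 6 transcripts were higher in every mandible sample than in every femur sample, with ratios of the mean level between 1.84 and 2.57. The level is given in CPM, UMIs per 1000000 UMIs of the summed cells of a sample and cluster, without correction for length. This pattern chose the genes. In a bulk sum like this, fewer cells with a transcript and fewer molecules per cell cannot be told apart. For scale, 5.03% of the 1134 noncoding genes tested in cluster 1 had all mandible samples above all femur samples, against 19.8% with all of them below.

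Gm26797 had 13.04, 11.8 and 12.9 CPM in femur replicates 1, 2 and 3 and 26.8, 27.8 and 24.6 in mandible replicates 1, 2 and 3, or 12.6 ± 0.686 against 26.4 ± 1.64 (SD, n = 3 each). Gm31925 had 8.51, 8.48 and 6.82 CPM in the femur samples and 18.4, 18.5 and 15.6 in the mandible samples. Gm11476 had 61.0, 55.3 and 58.5 CPM in femur and 120.8, 100.1 and 101.6 in mandible. In each of these 3 genes the gap between the highest femur and the lowest mandible sample was wider than the range of either group.

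Gm20337 had 3.98, 6.95 and 5.09 CPM in femur and 15.5, 12.02 and 13.7 in mandible. 9430060I03Rik had 5.83, 10.5 and 6.64 CPM in femur and 14.7, 15.6 and 16.8 in mandible. F730016J06Rik had 7.62, 5.52 and 9.73 CPM in femur and 15.6, 22.4 and 17.9 in mandible. Femur replicate 2 was the highest femur sample for Gm20337 and 9430060I03Rik and the lowest for F730016J06Rik, so the 3 femur samples did not keep one order across the genes.

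The fitted log2 fold changes in cluster 1 (mandible over femur, edgeR) were 1.21 ± 0.15 (SE) for Gm26797, 1.29 ± 0.17 for Gm31925, 1.02 ± 0.14 for Gm11476, 1.51 ± 0.21 for Gm20337, 1.18 ± 0.21 for 9430060I03Rik and 1.40 ± 0.26 for F730016J06Rik. The femur level of F730016J06Rik in cluster 1 was below that in the B-cell cluster (29.2 ± 13.9 CPM), so its ratio and fold change are over a level not told apart from background. Gm26797, Gm31925 and Gm11476 passed a false discovery rate of 0.05 over all 10687 genes tested, where 0.0655% of genes passed as higher in mandible, and the other 3 did not. These values had chosen the genes, so the calls are no test of them. None of the 3 passed in any of the 6 fits that left out 1 sample, each femur and each mandible replicate in turn. The fold changes themselves moved little there, with a range of 1.11 to 1.27 for Gm26797, 1.20 to 1.38 for Gm31925 and 0.93 to 1.08 for Gm11476.

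Femur replicate 1 was the only female sample. Without it, male samples alone gave log2 fold changes of 1.23 for Gm26797, 1.35 for Gm31925, 1.06 for Gm11476, 1.35 for Gm20337, 1.03 for 9430060I03Rik and 1.40 for F730016J06Rik. A femur and a mandible library share the library number 6, and another pair shares the number 7, whose meaning the labels do not give. Within those pairs the log2 ratio in cluster 1 was between 0.77 and 1.499 for 11 of 12 values, and 0.48 for 9430060I03Rik in the pair numbered 6.

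Among the 1134 noncoding genes tested in cluster 1 the median log2 fold change was -0.10. Ordered by fold change from the highest, Gm20337 stood at place 6, F730016J06Rik at 11, Gm31925 at 20, Gm26797 at 26, 9430060I03Rik at 30 and Gm11476 at 46. At an unadjusted p under 0.05, 88 noncoding genes were higher and 145 lower in mandible. Noncoding genes together took 3.64% to 4.75% of cluster 1 UMIs in mandible and 4.68% to 5.51% in femur samples.

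**Figure D2:**
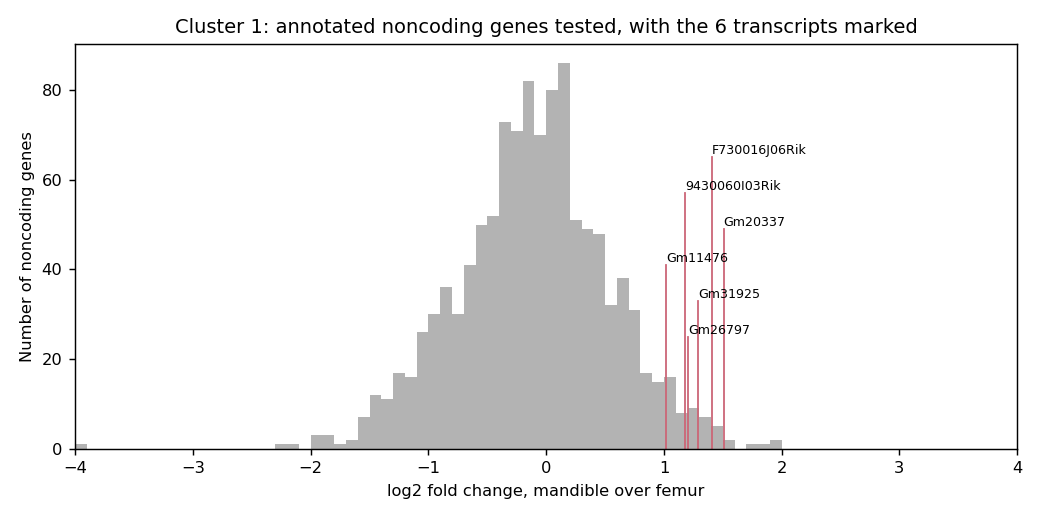
Number of noncoding genes (y axis, bins of 0.1) by log2 fold change of mandible over femur in cluster 1 (x axis), for the 1134 annotated noncoding genes tested, with a red line at each of the 6 transcripts. The lines stand between 1.02 and 1.51, on the right flank of a distribution with a median of -0.10.

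In cluster 2, the neighbouring late neutrophils, the same ordering of samples held for all 6 (6.88% of noncoding genes tested there, 6.48% of all genes), with ratios from 1.53 to 2.28, smaller than in cluster 1 for all but 9430060I03Rik. Gm31925 had 11.2 ± 0.0505 CPM in femur and 22.3 ± 6.00 in mandible (SD, n = 3 each), the mandible samples spreading from 16.4 to 28.4. 9430060I03Rik had 6.87 ± 1.73 against 15.6 ± 3.12 CPM, and F730016J06Rik had 17.6 ± 3.06 against 35.0 ± 3.16 CPM. Here too the femur level of F730016J06Rik lay below that in the B-cell cluster (29.2 ± 13.9 CPM) and was not told apart from background. By edgeR none of the 6 passed the false discovery rate in cluster 2, where 0.0312% of all genes passed as higher in mandible. DESeq2 called 5 of the 6, all but Gm20337, but its share of all genes is not given here. Over the neutrophil clusters DESeq2 called 171 pairs of an annotated noncoding gene and a cluster, against 4 by edgeR. As in cluster 1, these values had chosen the genes.

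Other genes moved between the sites of cluster 2 as well. Of the 15 RNA quality genes 13 had higher estimates in mandible, 11 higher and 0 lower at an unadjusted p under 0.05, with a median log2 fold change of 0.60, and mt-Cytb, a mitochondrial gene of the respiratory chain, was called (1.17 ± 0.12, adjusted p = 0.0127, edgeR). The summed level of that list overlapped between sites, at 17834 to 22676 CPM in femur and 18218 to 20652 in mandible, and the median mitochondrial share was 0.193% to 0.238% and 0.292% to 0.359%. Tooth genes summed to at most 0.148 CPM in femur and 15.8 to 71.4 in mandible (1 of 1 tested called higher). Megakaryocyte genes summed to 1.45 to 2.66 and 5.77 to 14.2, and T or NK cell genes to 10.4 to 13.4 and 15.8 to 17.1. Of the bone and stroma list 1 of 6 tested was called higher, with overlapping sums. Monocyte genes summed to 616 to 718 and 814 to 918, but 3 of 8 tested had a higher estimate, with a median log2 fold change of -0.10. Their part in the values of the 6 transcripts was not tested.

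In cluster 3, the Mmp8-rich stage, Gm31925, Gm11476, Gm20337 and 9430060I03Rik still did not overlap between sites (background 5.34% of noncoding genes), and Gm26797 and F730016J06Rik did. Gm20337 had 3.41, 7.02 and 6.77 CPM in femur and 16.6, 11.4 and 13.4 in mandible, a ratio of 2.40. Gm26797 had 59.8 ± 5.58 CPM in femur and 64.6 ± 12.5 in mandible, and F730016J06Rik had 48.7 ± 15.4 and 55.4 ± 10.6, differences smaller than the spread between samples. Tooth genes in cluster 3 summed to at most 0.0973 CPM in femur and 12.9 to 28.9 in mandible. Megakaryocyte genes summed to 1.65 to 3.30 and 3.74 to 9.35. The part of these markers in the values of the 6 transcripts was not tested.

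In clusters 0, 4 and 7, 2 of the 6 did not overlap between sites. In cluster 0, the Ltf-rich stage (background 3.94% of noncoding genes), these were Gm20337 at 8.34 ± 1.28 against 11.3 ± 1.08 CPM and 9430060I03Rik at 11.4 ± 2.92 against 17.7 ± 0.905 CPM. In cluster 4, the Elane-rich precursors, the same pair did not overlap (background 4.77%), Gm20337 at 5.70 ± 0.555 against 8.85 ± 1.26 CPM and 9430060I03Rik at 6.47 ± 1.38 against 9.98 ± 1.72 CPM. In cluster 7 it was Gm11476 (46.0 ± 12.2 against 75.5 ± 15.4 CPM) and 9430060I03Rik (10.98 ± 0.951 against 14.1 ± 2.17 CPM), with a background of 2.76%. Markers of other tissues were higher there too. In cluster 7 bone and stroma genes summed to 10.5 to 89.1 CPM in femur and 278 to 787 in mandible (3 of 6 tested called higher). Tooth genes summed to 0 in femur and 209 to 558 CPM in mandible, and their sums did not overlap in clusters 0 and 4 either. No list of cell or tissue markers lay lower in all mandible samples. Their part in the values of the 6 transcripts was not tested. 

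Across the 6 neutrophil clusters the genes thus fell along a range. 9430060I03Rik was higher in all mandible samples in 6 of 6 clusters, Gm20337 in 5, Gm11476 in 4, Gm31925 in 3, and Gm26797 and F730016J06Rik in 2, clusters 1 and 2. The median log2 fold change of the 6 was 1.25 in cluster 1, 0.97 in cluster 2, 0.67 in cluster 3, 0.48 in cluster 7, 0.32 in cluster 4 and 0.28 in cluster 0. Whether the fold differed between clusters was not tested, since the clusters share their samples and the genes were chosen on these values.

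**Figure D3:**
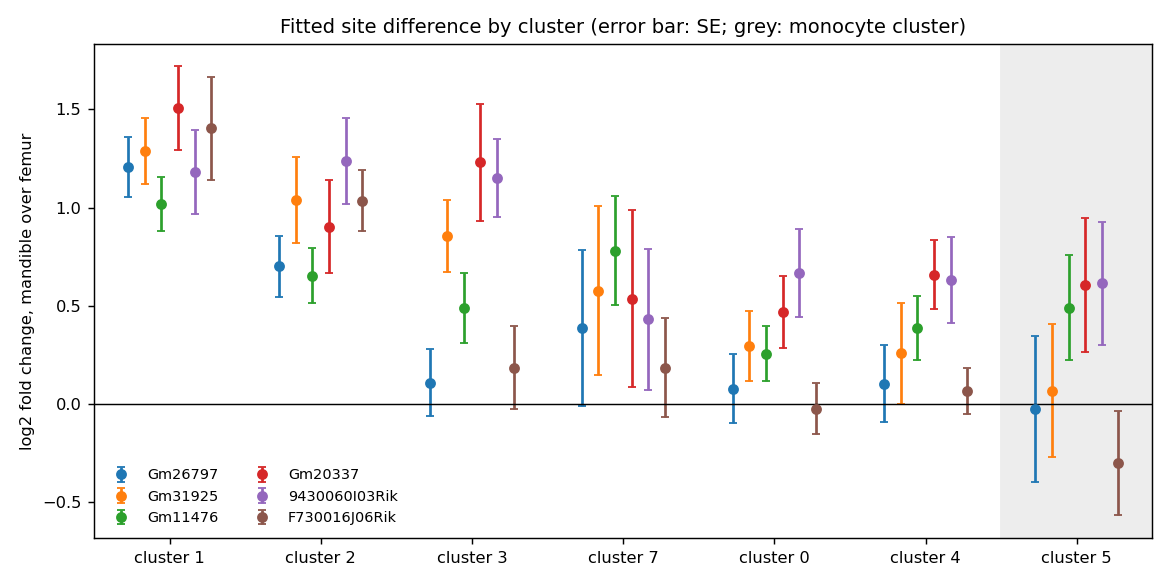
Fitted log2 fold change of mandible over femur (y axis) of each transcript in 6 neutrophil clusters and in the monocyte cluster 5 (x axis); points are estimates over 3 femur and 3 mandible samples and bars are SE. All 6 points lie above 1 in cluster 1, while Gm26797 and F730016J06Rik lie near 0 in clusters 3, 0 and 4.

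The genes also differed in their levels along the neutrophil stages. F730016J06Rik was highest in cluster 0, with 167.5, 176.8 and 123.9 CPM in femur and 174.5, 127.0 and 141.6 in mandible, above every sample of each other cluster of its site. Its lowest level among the neutrophil clusters was in cluster 1, 7.62 ± 2.10 CPM in femur and 18.6 ± 3.46 in mandible. Its cluster 0 values overlapped between the sites, with a log2 fold change of -0.02.

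Gm26797 was highest in cluster 3 and next, among neutrophil clusters, in cluster 0 (47.6 ± 6.06 CPM in femur, 48.9 ± 10.5 in mandible), and the samples of these clusters overlapped in mandible but not in femur. Its level in cluster 0 was 3.15 to 4.496 times that in cluster 1 in the femur samples and 1.59 to 2.27 times in the mandible samples. Gm31925 was also highest in cluster 3, with 15.2 ± 3.21 CPM in femur and 27.4 ± 4.22 in mandible, and was lowest among neutrophil clusters in cluster 4 (4.31 ± 0.829 and 5.07 ± 1.30). Its cluster 3 samples overlapped those of the next highest cluster at both sites, cluster 0 in femur and cluster 2 in mandible.

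Gm11476 had its lowest neutrophil level in cluster 4 at both sites. In femur its means were 58.3 ± 2.87 CPM in cluster 1, 67.5 ± 1.997 in cluster 2, 68.5 ± 8.77 in cluster 3 and 22.9 ± 1.77 in cluster 4, and cluster 1 was 1.10 to 1.35 times cluster 0 in each femur sample. In mandible its means in clusters 1, 2 and 3 were 107 ± 11.6, 104 ± 6.70 and 97.1 ± 10.9 CPM, which overlapped each other, and cluster 4 had 29.3 ± 5.29. Gm20337 and 9430060I03Rik were the flattest, with femur means of 5.34 to 9.07 and 6.47 to 11.4 CPM over the neutrophil clusters, and neighbouring ranks in femur overlapped throughout.

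**Figure D4:**
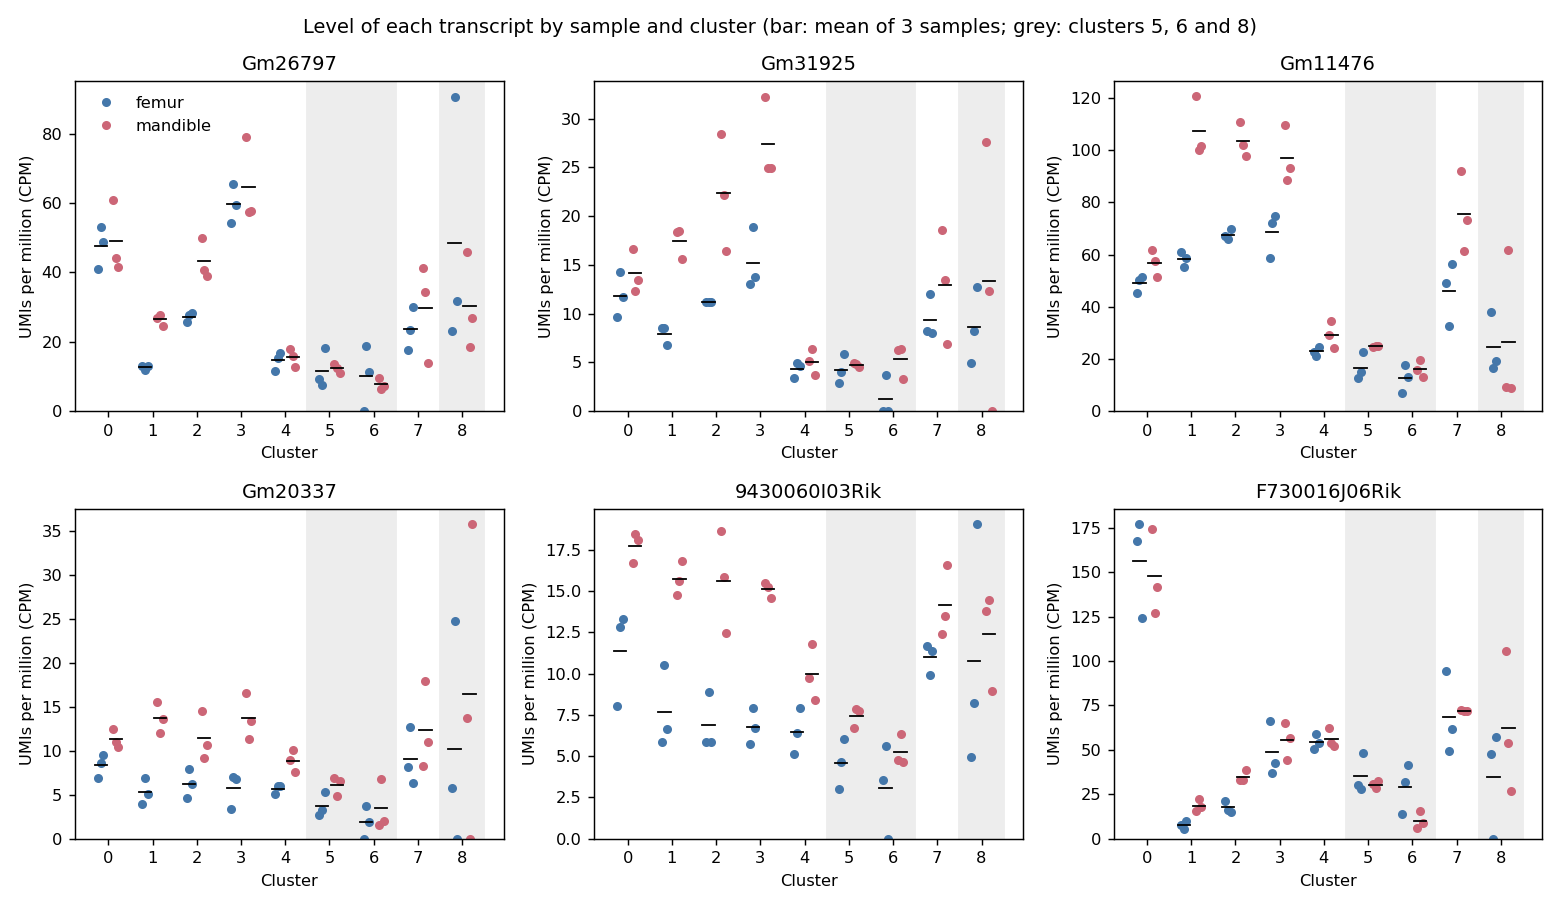
Level of each transcript in CPM (y axis, from 0) by cluster (x axis, 0 to 8), 1 point per sample (blue, 3 femur samples; red, 3 mandible samples), with a bar at each group's mean; clusters 5, 6 and 8, which were not used to choose the transcripts, are shaded. The red points lie above the blue ones for all 6 in clusters 1 and 2, and F730016J06Rik peaks in cluster 0, where both sites overlap.

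Monocytes, B cells and the haemoglobin-rich cluster were not used to choose the genes, so the site difference was tested there. They come from the same 6 libraries, and 34.4%, 13.7% and 87.6% of the cells of clusters 5, 6 and 8 carried a neutrophil label. A shift of a whole library, or of neutrophils in these clusters, would be shared, so the tests are not independent of the choice. In the monocyte cluster 5 all 6 passed the filter on low counts, in the B-cell cluster 6 only Gm11476 and F730016J06Rik did, and in cluster 8 only F730016J06Rik. The transcripts that did not pass it had 0 to 20 UMIs per sample in cluster 6 and 0 to 46 in cluster 8. None of the 9 differences passed the false discovery rate (edgeR quasi-likelihood test, 0% of all genes called in each of these clusters), and DESeq2 called none either. At an unadjusted p under 0.05 there was 1 of the 9, F730016J06Rik in cluster 6, where 4.04% of all genes and 14.8% of noncoding genes reached it, against 7.11% and 12.4% in cluster 5 and 1.1% and 0% in cluster 8.

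In monocytes 9430060I03Rik had 3.03, 4.64 and 6.01 CPM in femur and 6.69, 7.88 and 7.75 in mandible, with no overlap between the sites and a log2 fold change of 0.62 ± 0.31 (SE; adjusted p = 0.728, edgeR). Gm11476 had 12.7, 14.8 and 22.5 CPM in femur and 24.7, 24.8 and 25.1 in mandible, likewise without overlap, and a log2 fold change of 0.49 ± 0.27 (adjusted p = 0.747, edgeR). These 2 of 6 compare with 7.32% of all genes and 4.53% of noncoding genes whose mandible samples all lay above the femur samples in cluster 5. Gm20337 had a log2 fold change of 0.61 ± 0.34 with overlapping samples, Gm26797 one of -0.02, Gm31925 one of 0.07 and F730016J06Rik one of -0.30 ± 0.27. These estimates moved with single femur samples. Without femur replicate 1 they were 0.37 for 9430060I03Rik, 0.29 for Gm11476 and 0.39 for Gm20337, and without femur replicate 3 they were 0.98, 0.89 and 1.06. Gm26797 lay between -0.28 and 0.60 and Gm31925 between -0.18 and 0.50 with 1 sample left out, and with monocyte-labelled cells alone they were at -0.74 and -0.32. Tooth genes in cluster 5 summed to 0.149 to 0.550 CPM in femur and 16.8 to 1330 in mandible, and megakaryocyte genes to 11.4 to 33.9 and 36.2 to 59.5. The sums of the other lists of cell or tissue markers overlapped. The part of these markers in the values of the 6 transcripts was not tested.

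In B cells F730016J06Rik had 14.1, 31.9 and 41.5 CPM in femur and 6.32, 15.6 and 8.61 in mandible, with overlapping samples and a log2 fold change of -1.52 ± 0.41 (adjusted p = 1.00, edgeR). Those values rest on 4, 34 and 22 UMIs in femur and 4, 32 and 13 in mandible. The 16 genes of the neutrophil marker list summed to 33373 to 134535 CPM in the femur samples of the same cluster and 54747 to 83909 in the mandible samples, with 3 of 13 tested estimates higher in mandible, none called, and a median log2 fold change of -0.30. Their part in the F730016J06Rik value was not tested.

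Genes beside the 6 transcripts were tested in the neutrophil clusters, since they took no part in the choice. Of 64 pairs of a neighbour and a cluster, none passed the false discovery rate over all genes (edgeR), 13 had an unadjusted p under 0.05, and DESeq2 called 4, which were Abhd5 in clusters 1 and 2, Ano10 in cluster 1 and Gpr35 in cluster 1. By edgeR, 0.0163% of all genes passed in either direction in cluster 0, 0.0842% in cluster 1, 0.0416% in cluster 2, 0.0108% in cluster 3, 0.0245% in cluster 4 and 0.0842% in cluster 7. The DESeq2 share of all genes is not given here. An unadjusted p under 0.05 was reached by 6.81% of all genes in cluster 0, 13.6% in cluster 1, 12.2% in cluster 2, 4.38% in cluster 3, 13% in cluster 4 and 5.32% in cluster 7.

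The genes on either side of Gm26797 had higher values in mandible. Ano10 had 71.5, 53.5 and 48.9 CPM in femur and 78.3, 84.3 and 96.5 in mandible in cluster 1, a log2 fold change of 0.71 ± 0.17 (adjusted p = 0.143, edgeR). Abhd5, which encodes an activator of triglyceride breakdown, had 48.4, 59.7 and 45.7 CPM in femur and 94.1, 81.3 and 60.5 in mandible, or 0.77 ± 0.18 (adjusted p = 0.137, edgeR). In both the sites did not overlap, and both estimates were smaller than the 1.21 of Gm26797.

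Gpr35, which starts 275 bases from 9430060I03Rik on the other strand, had values in the opposite direction. It had 28.1, 23.5 and 23.1 CPM in femur and 13.2, 15.5 and 8.40 in mandible in cluster 1, a log2 fold change of -0.86 ± 0.23 (adjusted p = 0.165, edgeR), beside 1.18 for 9430060I03Rik. Capn10, which 9430060I03Rik covers, had 2.77 ± 0.223 CPM in femur and 2.78 ± 0.558 in mandible.

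Srsf5, 108 bases from Gm20337, had 465 ± 69.9 CPM in femur and 472 ± 52.6 in mandible (log2 fold change 0.16 ± 0.15), while Gm20337 stood at 1.51. Ube2v1, which overlaps the end of Gm11476, had 21.0 ± 2.20 and 22.5 ± 1.68 CPM (0.23 ± 0.15). Suco near Gm31925 had 389 ± 116 and 412 ± 105 CPM, with overlapping samples. Snai1, a transcription factor gene before Gm11476, had 3.53 ± 2.57 and 7.78 ± 3.09 CPM, a log2 fold change of 1.27 ± 0.56 with overlapping samples (adjusted p = 0.367, edgeR). Gm47126, Gm13371 and Olfm1 were too low to test in cluster 1, and 1700052I22Rik beyond Gm20337 had no UMI in it.

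**Figure D5:**
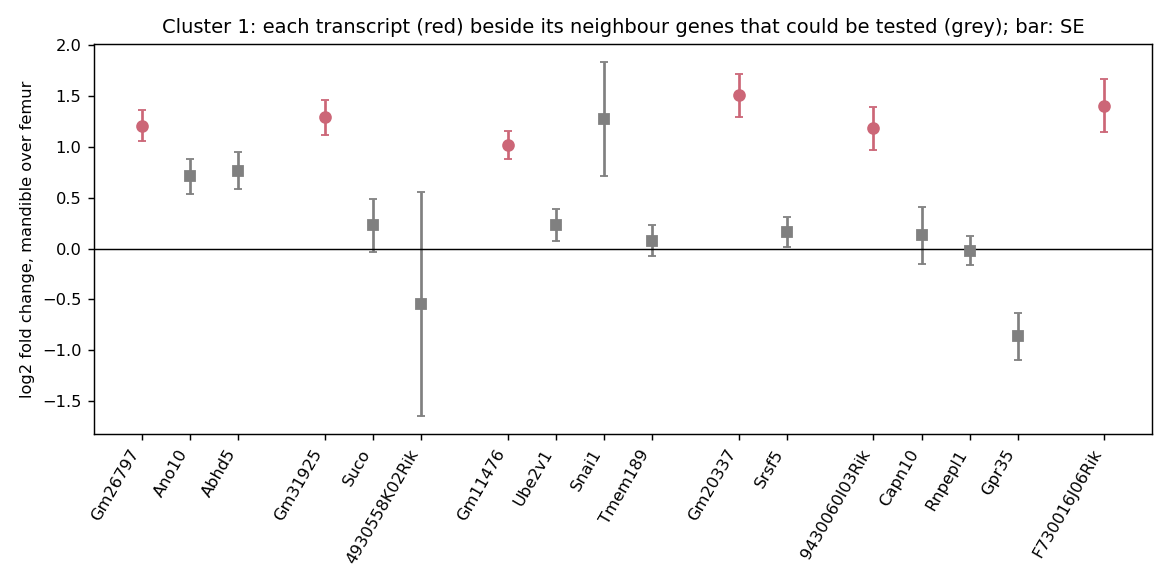
Log2 fold change of mandible over femur in cluster 1 (y axis; bars are SE, 3 samples per site) of each transcript (red circles) and of its neighbouring genes that could be tested (grey squares), grouped by transcript along the x axis. Ano10 and Abhd5 lie above 0 beside Gm26797, Gpr35 lies at -0.86 beside 9430060I03Rik at 1.18, and Srsf5 lies near 0 beside Gm20337.

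Noncoding RNAs with an established name were looked at as a group of 43, of which 39 were found in the files. In 140 tests over the neutrophil clusters none passed the false discovery rate (edgeR) and 15 had an unadjusted p under 0.05, while DESeq2 called 1, Morrbid in cluster 1. Of all annotated noncoding genes tested, 17.3% had an unadjusted p under 0.05 in cluster 0, 20.5% in cluster 1, 23.5% in cluster 2, 15.2% in cluster 3, 18.9% in cluster 4 and 18% in cluster 7. Morrbid, a noncoding RNA known to lengthen the life of short-lived myeloid cells, had 135, 167 and 138 CPM in femur and 204, 187 and 249 in mandible in cluster 1, without overlap, and a log2 fold change of 0.68 ± 0.14 (adjusted p = 0.0966, edgeR). The median of the 24 members tested in cluster 1 was a log2 fold change of -0.0044, beside 0.0035 for all genes.

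Malat1, a nuclear RNA and the noncoding gene with the most UMIs in the neutrophils, had 20217 ± 6259 CPM in femur and 15988 ± 379 in mandible in cluster 1 (log2 fold change -0.21 ± 0.26, adjusted p = 0.795, edgeR). Neat1, the scaffold of nuclear paraspeckles, had 2066 ± 762 and 1638 ± 410 CPM (-0.19 ± 0.29, adjusted p = 0.841, edgeR). Gm42418, Mir142hg and Gm26740 made up the rest of the 5 most counted. By mean CPM over the neutrophil clusters the 6 transcripts stood at places 35 (Gm11476), 37 (F730016J06Rik), 67 (Gm26797), 173 (Gm31925), 189 (9430060I03Rik) and 219 (Gm20337) of 6926 noncoding genes with any UMI, an order that also depends on length and on how well each 3′ end is captured.

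Other genes followed the 6 transcripts across the 48 sums of clusters 0 to 7 and 6 samples, which share libraries and cells. F730016J06Rik was most like Golim4 (Pearson r = 0.951, log2(CPM + 1)), Abca13 (0.932) and Lhfpl2 (0.931). Gm26797 was most like the noncoding Gm38843 (0.923) and Platr7 (0.919) and Ly6g (0.912), the surface protein gene that marks mouse neutrophils. Gm11476 was most like Spatc1 (0.946), Dgat1 (0.945), a triglyceride synthesis gene, and 9830107B12Rik (0.944).

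The remaining 3 had weaker likeness. Gm31925 was most like Pabpc1l (0.901), E230014E18Rik (0.898) and Gm28905 (0.895), Gm20337 was most like Erp27 (0.839), Ifitm10 (0.815) and 9430060I03Rik (0.810), and 9430060I03Rik was most like Zfp523 (0.825), then Gm20337 and Gm31925 (0.794). Between F730016J06Rik and Gm31925 r was 0.228.

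The sums that chose these genes include both sites of cluster 1, so their values there are a description, with no test. Golim4 had 39.1 ± 10.8 CPM in femur and 82.3 ± 19.6 in mandible (log2 fold change 1.21 ± 0.26). Lhfpl2 had 5.13 ± 1.39 and 13.6 ± 4.93 CPM (1.54 ± 0.32). Ly6g had 215 ± 59.6 and 364 ± 81.3 CPM (0.89 ± 0.27).

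The general neutrophil markers were also looked at in cluster 1. Of the 16 genes of the neutrophil list 12 had a higher estimate in mandible, none passed the false discovery rate, and 8 higher and 1 lower had an unadjusted p under 0.05, with a median log2 fold change of 0.49 beside 0.00 for all genes. Ltf had 467, 242 and 586 CPM in femur and 717, 1945 and 770 in mandible, Ngp a log2 fold change of 1.52 ± 0.45, and Mmp8 one of 0.90 ± 0.23, while Csf3r had -0.39 ± 0.16. The summed level of the whole list was 167117 to 237498 CPM in femur and 227225 to 290009 in mandible samples. Ltf, like F730016J06Rik, was highest in cluster 0, whereas Gm11476 was lower in cluster 0 (48.9 ± 3.35 CPM in femur, 56.8 ± 5.15 in mandible) than in cluster 1 at both sites. The part of the stage mix in the site difference was not tested.

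Markers of other tissues were also present. In cluster 1 the 9 tooth genes summed to 0 to 0.0686 CPM in femur and 13.1 to 49.4 in mandible, with 7 of 9 at 0 in all femur samples and Amelx, the main enamel matrix gene, at 29.7 CPM in mandible. Of the tooth list 2 of 2 tested were called higher. Of the bone and stroma list 1 of 6 tested was called higher, and the sums were 13.2 to 19.7 against 18.3 to 19.8 CPM. B-cell sums were 2.47 to 9.68 and 6.93 to 10.5 CPM, T or NK cell sums 7.55 to 11.3 and 13.7 to 16.4, megakaryocyte sums 1.85 to 7.63 and 3.68 to 17.4, monocyte sums 460 to 547 and 595 to 725, erythroid sums 60.7 to 336 and 38.3 to 1184, and eosinophil, basophil or mast cell sums 0.512 to 1.40 and 0.614 to 1.05. The 15 RNA quality genes summed to 23649 to 32291 CPM in femur and 22778 to 24896 in mandible, with 11 of 15 estimates higher in mandible, none called, 7 higher and 0 lower at an unadjusted p under 0.05, and a median log2 fold change of 0.46. In cluster 3 their median was 0.23. The median mitochondrial share was 0.196% to 0.266% in femur and 0.295% to 0.365% in mandible. The part of these in the values of the 6 transcripts was not tested.

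Most cells of cluster 1 had no UMI of any given transcript. Gm11476 was seen in 23.2% ± 4.36 of cells in femur and 36.7% ± 4.20 in mandible (SD, n = 3 each), against 5.61% ± 2.68 and 6.25% ± 1.68 of the B-cell cluster, used here as a measure of free RNA although 13.7% of its cells carried a neutrophil label. Gm31925 was seen in 3.99% ± 1.13 and 8.17% ± 0.953 of cluster 1 cells (B cells 0.633% ± 1.10 and 2.35% ± 1.61), Gm20337 in 2.68% ± 0.640 and 6.40% ± 1.19 (B cells 1.40% ± 1.29 and 1.82% ± 1.28) and 9430060I03Rik in 3.87% ± 1.10 and 7.45% ± 0.271 (B cells 2.12% ± 1.94 and 3.00% ± 0.293). In femur the samples of cluster 1 and of the B cells overlapped for Gm20337 (from 2.22% in cluster 1, up to 2.53% in B cells) and 9430060I03Rik (from 2.84%, up to 3.80%), and in mandible they did not. Median UMIs per cell were 3827 to 6154 in cluster 1 and 3104 to 5541 in the B cells.

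For the remaining pair of genes the femur share in cluster 1 was close to or below that in B cells. Gm26797 was seen in 5.49% ± 0.977 of femur and 11.1% ± 0.658 of mandible cells, with 4.41% ± 4.15 and 3.59% ± 1.36 in B cells. F730016J06Rik was seen in 3.07% ± 0.616 and 6.11% ± 0.691, with 9.86% ± 6.49 and 3.60% ± 0.665 in B cells, so its femur share in cluster 1 was not told apart from background. The femur B-cell values rest on 4, 34 and 22 UMIs, and 13.7% of the cells of that cluster carried a neutrophil label. They may hold more than free RNA and set no firm floor. In cluster 0 the shares of F730016J06Rik were 70.1% ± 4.89 and 71.1% ± 5.96.

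With each cell thinned to 1000 UMIs, which left out 12 of the 15824 cells of cluster 1, the shares in femur and mandible were 5.47% and 9.24% for Gm11476, 1.03% and 2.27% for Gm26797, 0.606% and 1.71% for Gm31925, 0.473% and 1.53% for Gm20337, 0.869% and 1.65% for 9430060I03Rik and 0.682% and 1.03% for F730016J06Rik. The mandible mean remained above the femur mean for all 6, and for F730016J06Rik the samples then overlapped, at 0.305% to 0.913% and 0.874% to 1.16%. The thinned B-cell shares in femur and mandible were 0.556% and 0.966% for Gm11476, 0.977% and 0.548% for Gm26797, 0.422% and 0.384% for Gm20337 and 3.28% and 0.214% for F730016J06Rik, and at most 0.299% for Gm31925 and 9430060I03Rik. The thinned femur shares of Gm20337 and Gm26797 in cluster 1 were thus close to those in B cells, and that of F730016J06Rik was below.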

How the data were processed

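CD11b+ marrow cells of 3 femur and 3 mandible samples had been sequenced with 10x 3′ chemistry. The deposited matrices hold counts of UMIs per gene and barcode, made by the authors with Cell Ranger on mm10 (version 7.0.1 per the submitters' processing notes, 7.1.0 per the file headers). The deposited cell table gives the cluster at resolution 0.1, reference labels, phases and the mitochondrial percent, after the authors' filters of 600 to 6000 genes and 20% mitochondrial UMIs. Deposited marker fold changes and p-values compare clusters and were not used. How doublets and introns were treated is not given in the sources used here, and no doublet caller was run here.

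Counts were summed per sample and cluster, and sites were compared with edgeR 4.0.16 (quasi-likelihood, TMM, default low-count filter, R 4.3.3) over all genes of a cluster with Benjamini-Hochberg adjustment at 0.05. DESeq2 1.42.0 and the other alternatives are given at the end. The fit was tested on simulated data. Named genes were the 6 transcripts, their neighbours, the 3 most alike genes with at least 5 CPM, called known noncoding genes with Malat1 and Neat1, and the 5 most counted noncoding genes. Morrbid, A330040F15Rik, the marker genes and the other known noncoding genes that an alternative called were added after their values were seen. The transcripts and lists were chosen with earlier results of these data known. Gene positions come from GENCODE vM21, which held 99.85% of the 32285 genes.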

Additional observations from a re-analysis of the deposited data

Results flagged for a closer look

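The barcodes that the authors' filters had left out, 424 to 2332 per femur sample and 322 to 421 per mandible sample, took no part in any comparison, yet 4 of the 6 transcripts were higher there in every mandible sample than in every femur sample. Of the genes with at least 100 UMIs in these barcodes, 2.12% of all 10781 and 3.03% of the 528 noncoding ones had that order. The barcodes come from the same 6 libraries as the cells that chose the transcripts. Gm31925 had a mean of 10.03 CPM in mandible and 5.63 in femur, Gm11476 40.78 and 24.5, Gm20337 9.973 and 5.47, and 9430060I03Rik 12.39 and 6.35. For Gm26797 (23.5 and 16.98) and F730016J06Rik (64.4 and 50.2) the samples overlapped. In femur replicate 2 these barcodes held 7 UMIs of Gm31925, 8 of Gm20337 and 9 of 9430060I03Rik. The left-out barcodes carry no cluster, so the mix of cell types behind these values is not known, and the differences were not tested.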

How the results depend on the processing

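In cluster 1 each of the 6 transcripts kept its direction under all 12 alternatives. The alternatives reused the counts that had chosen the genes, with every mandible level there above every femur level. The direction could therefore hardly turn, and its being kept is no test. Of the 6, 3 were called in cluster 1, 4 with RLE size factors, and 6 with DESeq2, no filter or the library block (4 libraries only). For those alternatives the share of all genes called is not given, and the calls are no test of the transcripts. DESeq2, no filter and the library block also called far more annotated noncoding pairs than the main fit, as counted below. In the other neutrophil clusters 0 were called, but DESeq2 called 5 in cluster 2 and 3 in cluster 3, no filter 6 in cluster 2, 3 in cluster 3 and 2 in cluster 4, and the library block 6 in cluster 2, 5 in cluster 3, 3 in cluster 4 and 1 in cluster 0, all higher in mandible. Counted as pairs of a gene and a neutrophil cluster, the calls among annotated noncoding genes numbered 4 (3 higher, 1 lower), and 7 with RLE size factors (4 higher, 3 lower), 171 with DESeq2 (46 higher, 125 lower, 107 genes) and 483 with no filter on low counts (93 higher, 390 lower, 257 genes); leaving out 1 sample gave 0 to 8, with 0 without femur replicate 1, 2 or 3 or mandible replicate 2, 1 (A330040F15Rik) without mandible replicate 3 and 8 without mandible replicate 1. The pairs called among neighbours went from 0 to 6 with no filter (4 genes) and 4 with DESeq2 (3 genes), and among known noncoding genes from 0 to 3 with no filter and 1 with DESeq2. Leaving out 1 sample gave 0 to 0 for neighbours, and 0 to 1 for known noncoding genes, the 1 being Snhg3 without mandible replicate 1. In clusters 5, 6 and 8 the transcripts called numbered 0, also in every fit without 1 sample, and 1 with no filter (F730016J06Rik in cluster 6, lower). The cause of these changes was not tested. Shares of all genes called are given above for the main edgeR fit alone. The replicate numbers of the titles do not pair the samples (correlations of their deviations from -0.51 to 0.59), and a block on them gave 3 noncoding calls, none of the 6. The library number, which 2 pairs share, gave correlations of 0.34 to 0.56 in clusters 0 to 3 and of -0.61 to 0.32 in the others. A block on it used only the 4 libraries of those pairs, without femur replicate 1, the only female sample, and mandible replicate 3. It is therefore not a fit of all 6 samples. It gave 705 noncoding pairs (286 higher, 419 lower, 329 genes), 15 neighbour pairs (6 genes), 7 known noncoding pairs (5 genes) and 1 transcript in clusters 5, 6 and 8 (F730016J06Rik in cluster 6).
Signs turned for these estimates. Gm26797 in cluster 5 ranged from -0.275 (without femur replicate 2) to 0.604 (without femur replicate 3) with 1 sample left out, and was 0.0753 without mandible replicate 3, 0.0304 with the library block, 0.124 with the title block and -0.740 with labelled cells alone. Gm31925 in cluster 5 ranged from -0.177 (without femur replicate 1) to 0.497 (without femur replicate 3), and was -0.0887 with the library block and -0.318 with labelled cells alone. Gm11476 in cluster 6 ranged from -0.0575 (without mandible replicate 2) to 0.514 and was -0.0201 without femur replicate 1, and F730016J06Rik in cluster 5 ranged from -0.462 to 0.110 (without femur replicate 3). Its mandible minus femur difference in thinned share in cluster 7 was -0.473 percentage points. Among the neutrophil clusters, thinning also turned the order of the mean shares of Gm31925 in cluster 7 (femur 6.79% and mandible 9.54%, thinned 1.42% and 1.40%). It did so in cluster 0 for F730016J06Rik (70.1% and 71.1%, thinned 14.1% and 13.9%) and Gm26797 (39.5% and 39.3%, thinned 4.95% and 5.10%). With 1 sample left out, Gm26797 reached -0.0976 in cluster 0, -0.0362 in cluster 3 and -0.0651 in cluster 4, and F730016J06Rik reached 0.0458 in cluster 0, -0.00749 in cluster 3, -0.0289 in cluster 4 and -0.0214 in cluster 7. In cluster 8, where samples held 111960 to 1215033 UMIs and 2543 genes could be tested, a p that missed the threshold does not show that the sites were alike.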

Other observations

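By the deposited phase labels, F730016J06Rik in cluster 0 had 162 ± 28.7 CPM in femur cells labelled G1 and 66.0 ± 16.0 in those labelled G2M, and 151 ± 22.8 and 60.7 ± 12.2 in mandible. Gm26797 had 48.9 ± 5.96 and 26.2 ± 4.002 CPM in femur, and 49.7 ± 10.2 and 33.2 ± 14.5 in mandible. Gm20337 had 8.16 ± 1.42 and 11.3 ± 2.12 CPM in femur, and 11.2 ± 1.14 and 16.8 ± 3.30 in mandible (SD, n = 3 samples each). The cells labelled G2M numbered 596 in femur and 140 in mandible, the labels are calls on single cells, and no test was run.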
